A study of Mus musculus with 24 samples.

Results

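The last day of a dendritic cell culture was examined by comparing cells of day 10 with cells of day 9 in control mice. These were 6 of the 24 RNA-seq libraries of a study of bone-marrow-derived dendritic cells, 3 for each day, chosen by their genotype and day labels. The study followed cultures of control and Arpc4 conditional knockout mice on days 7, 8, 9 and 10, with day 10 taken as the fully differentiated state. All cultures came from mice aged 8 to 10 weeks, of both sexes, and were fed with GM-CSF, a myeloid growth factor. The control mice, called WT, carried ARPC4 Flox/Flox alleles and no Cre (CD11c-Cre -/-), so the control cells also carry the floxed alleles. The comparison mice, called KO, were ARPC4 Flox/Flox with 1 copy of CD11c-Cre (CD11c-Cre +/-), so that Cre is driven by the CD11c promoter. Cells were replated in fresh medium on days 4 and 7, so days 9 and 10 followed without another stated passage. The labels state that only cells in suspension were taken and that over 90% of them carried CD11c. Each genotype had 3 libraries on each day, and the numbers in their titles, which recur on every day, are read here as 3 mice. Expression was measured over 14535 genes with enough counts, of 55487 in the deposited table, and is given as CPM, a count scaled to the size of its library.

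GM-CSF drives bone marrow progenitors to divide and to become cells with dendritic cell and macrophage features. Its receptor signals through STAT5, the ERK kinases and PI3 kinase, and sustains growth genes such as Myc. Such cells also release chemokines and cytokines when handled or stimulated, through transcription factors of the NF-kB family, and mature towards antigen presentation as they age in culture.

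The 3 libraries of day 9 held 19952047 to 21278903 counts, fewer than the 24854681 to 27862401 of day 10, so depth moved with the day. With every library thinned to the lowest total, 477 genes were called in place of 523. The 10 most counted genes took 13.5% to 15.1% of counts in these 6 libraries, and mitochondrial transcripts took 1.99% to 2.94%. Arpc4, the targeted subunit of the actin-nucleating Arp2/3 complex, stood at 238, 219 and 226 CPM on day 9 and at 210.4, 208 and 242 CPM on day 10, with -0.05 ± 0.07 (SE) as log2 fold change and 0.747 as adjusted p in edgeR. In the 6 KO libraries of those days Arpc4 ranged from 173 to 204 CPM, below the WT libraries but with most of its count retained, so these values do not by themselves show a deletion. Itgax, which encodes CD11c, stood at 1348, 1590 and 1440 CPM on day 9 and at 1148, 1661 and 1313 CPM on day 10. The WT library of mouse 63 carried the Y-linked Ddx3y (56.5 CPM on day 9, 73.2 CPM on day 10) with Xist at or under 0.427 CPM on both days, and the reverse held for mice 65 and 66. These genes set mouse 63 apart on both days but cannot tell mouse 65 from mouse 66, whose numbers rest on the labels. Among KO libraries the one with Ddx3y was numbered 64 on days 7 and 9, 68 on day 8 and 67 on day 10. The comparisons below therefore use KO libraries as groups, without their numbers, and only some of the alternatives given in the closing section use these numbers. In bulk samples a change in the number of cells of a type and a change of RNA per cell cannot be told apart.

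Between day 9 and day 10, 523 genes passed an adjusted p of 0.05 (edgeR quasi-likelihood test, Benjamini-Hochberg), which is 3.6% of the genes tested. Of these, 171 were higher on day 10 (1.18%) and 352 were lower (2.42%). The median absolute log2 fold change of called genes was 0.43, and 62 genes changed by at least 1 on the log2 scale, 27 upward and 35 downward. The median over all genes tested was 0.01. For 522 of the 523, CPM values of the 2 days did not overlap, and all 523 moved the same way in each of the 3 mice. Over all genes tested, 25.9% had no overlap. An unadjusted p under 0.05 was reached by 2570 genes, against 727 that would be reached with no change at all. The fit used all 24 libraries, and the number of calls depended on the libraries and terms in the fit. It was 1466 in the 12 WT libraries alone, which were filtered and scaled anew, and 2331 in those libraries with mouse as a block, called the blocked WT fit below. These 2331, which included 522 of the 523, are 16.7% of the 13933 genes of that fit. The balance of directions also depended on the fit, since 8.66% were higher and 8.07% lower there and higher genes made up 51.8% of its calls, against 32.7% in the fit of all libraries. Counts of list members in the blocked WT fit are to be read against these shares. In the fit of all libraries, filtered anew once a mouse was left out, the count fell to 0 of 14731 without mouse 63. There 1553 genes had an unadjusted p under 0.05. The count fell to 29 without mouse 65 and to 182 without mouse 66. The counts without mouse 63, 65 or 66 were 1542, 859 and 1968 in the blocked WT fit.

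**Figure D1:**
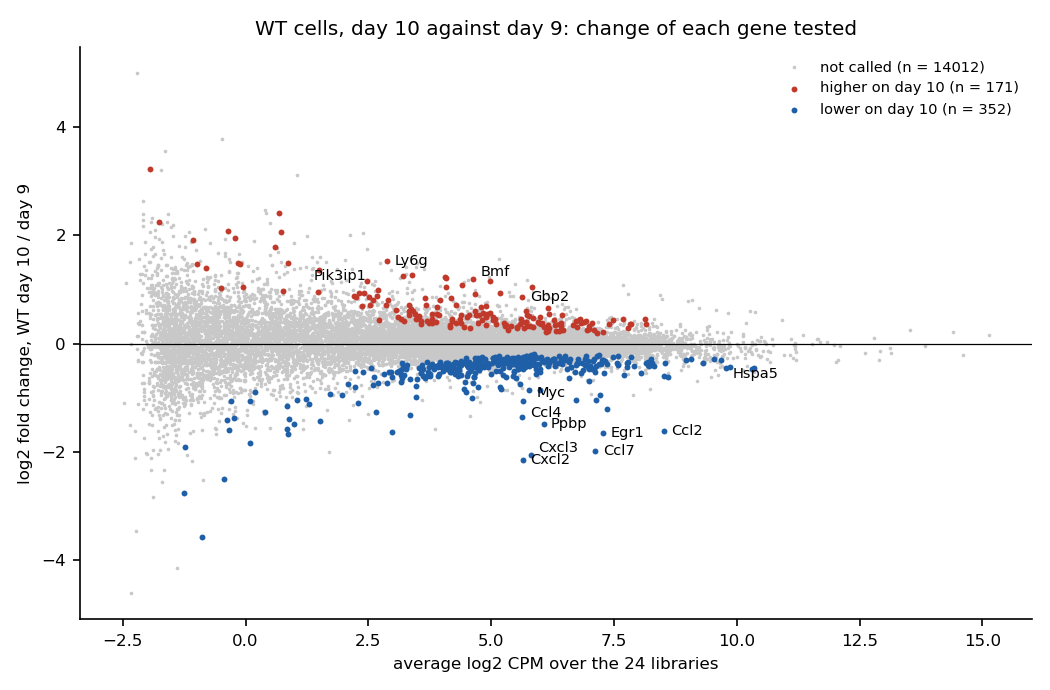
Log2 fold change of WT day 10 over day 9 for each gene tested (vertical axis) against its average log2 CPM over the 24 libraries (horizontal axis). Genes called higher (171) and lower (352) are coloured, and the chemokines Cxcl2, Cxcl3 and Ccl7 lie lowest among the named abundant genes.

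The largest decreases among called genes with an average log2 CPM above 1 were mostly those of chemokines, secreted proteins that attract leukocytes. Cxcl2, a neutrophil attractant, stood at 33.3, 36.2 and 36.03 CPM on day 9 and at 9.18, 8.51 and 6.09 CPM on day 10. All 3 values of day 9 lay more than 3-fold above the highest value of day 10. Its log2 fold change was -2.15 ± 0.28 (SE), with an edgeR adjusted p of 0.00219. Cxcl3, a close relative, went from 34.8 ± 4.4 to 8.38 ± 1.6 CPM (mean ± SD, n = 3; log2 fold change -2.05). Ccl2, the main monocyte attractant and the most abundant of these genes, stood at 451, 502 and 417 CPM on day 9 and at 127, 184 and 137 CPM on day 10. The groups did not overlap, and the log2 fold change was -1.61 ± 0.27 (adjusted p = 0.0045). Its neighbours in the chromosome 11 chemokine cluster fell as well, with log2 fold changes of -1.99 for Ccl7 and -1.63 for Ccl12. Ccl4 and Ccl3, further leukocyte attractants, also fell (-1.36 and -1.20).

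Of 25 chemokine and chemokine receptor genes tested, 4 fell and 1 rose, with a median log2 fold change of -0.16 (-0.36 without mouse 63, -0.27 without mouse 65). The decreases were Ccl2, Ccl7, Ccl12 and Ppbp, a platelet chemokine, and the increase was Ccrl2, an atypical receptor that binds chemerin (log2 fold change 0.44). Of 30 cytokine and feedback genes downstream of NF-kB, 6 fell and 0 rose, with a median of -0.29. Besides Cxcl2, Cxcl3, Ccl3 and Ccl4 these were Tnf, the inflammatory cytokine, and Socs3, an inhibitor of cytokine receptor signalling. Tnf stood at 86.3, 62.1 and 69.2 CPM on day 9 and at 35.7, 45.7 and 38.3 CPM on day 10, without overlap. Il1b, the interleukin-1 beta gene, was not called (11.9 ± 2.6 against 9.69 ± 1.6 CPM, mean ± SD, n = 3), and its values overlapped. In the blocked WT fit 13 of 29 members of the NF-kB list fell and 1 rose, and 10 of 25 chemokine and receptor genes fell and 4 rose. Without mouse 63 in the fit of all libraries 0 members were called, with a median of -0.34.

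The promoter of Cxcl2 is shown because this gene had the largest decrease among called genes with an average log2 CPM above 1 and because an NF-kB motif stands in it. The sequence is the 250 bases upstream of the RefSeq start (GRCm38.p6, chr5:90903649-90903898, forward strand), written 5′ to 3′, and the capitals mark the NF-kB letters GGGAATTTC, 97 to 89 bases before the start.
Cxcl2: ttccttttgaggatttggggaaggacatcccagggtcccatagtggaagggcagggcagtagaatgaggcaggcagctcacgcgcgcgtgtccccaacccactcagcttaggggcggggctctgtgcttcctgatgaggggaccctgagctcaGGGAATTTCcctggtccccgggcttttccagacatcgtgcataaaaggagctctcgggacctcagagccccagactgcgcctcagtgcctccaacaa
Among promoters of this length with a RefSeq entry, GGGAATTTC on either strand was found in 4 of 24 on the NF-kB list (16.7%) and in 20 of 10521 of all genes tested (0.19%), and in 0.709% of those of genes lower on day 10. A match describes the letters only. The NF-kB list was chosen as genes downstream of NF-kB, so its share describes the choice of the list and not the change on day 10. Among genes lower on day 10 the motif stood in 2 of 282 promoters.

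**Figure D2:**
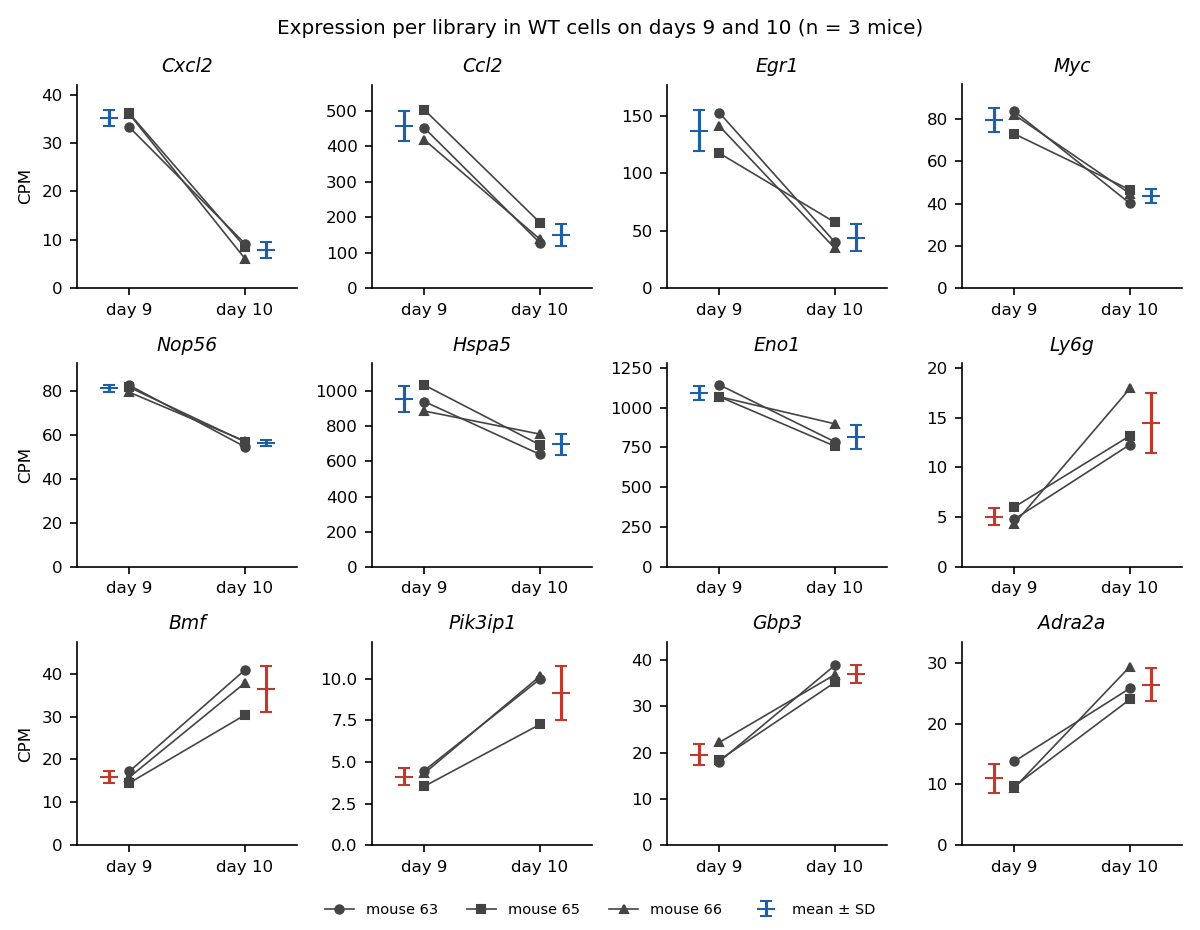
CPM of 12 genes in each WT library of day 9 and day 10, with lines joining the libraries of 1 mouse and bars giving mean ± SD (n = 3). In each panel the 3 values of day 9 lie apart from the 3 of day 10, as for Cxcl2 (33.3 to 36.2 against 6.09 to 9.18 CPM).

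Immediate early genes, which respond to growth factor and stress signals within minutes to hours, fell in part. Of 25 tested, 6 fell and 0 rose, with a median of -0.19. Egr1, a zinc finger transcription factor, stood at 153, 118 and 141 CPM on day 9 and at 39.9, 57.2 and 34.6 CPM on day 10. The lowest value of day 9 lay well above the highest of day 10, and the log2 fold change was -1.64 ± 0.33 (adjusted p = 0.00928). Fos, a subunit of AP-1, went from 92.5 ± 4.1 to 44.8 ± 5.4 CPM, and Egr2 from 172 ± 11 to 89.4 ± 24 CPM (mean ± SD, n = 3). Klf6 and Fosl1 fell too, with log2 fold changes of -0.36 and -1.40. Dusp1, a phosphatase that turns off MAP kinases, stood at 35.9, 30.4 and 40.2 CPM on day 9 and at 15.3, 18.3 and 17.6 CPM on day 10, without overlap. Its log2 fold change was -1.05 ± 0.20 (adjusted p = 0.0066). The locus overlaps Ergic1 on the opposite strand, whose count was 446% of that of Dusp1, and the strand setting of the authors' counting was not given in the sources used here. Under the block in the WT libraries 11 members fell and 2 rose, and without mouse 63 in the fit of all libraries 0 were called, with a median of -0.04. Without mouse 66 the median was -0.29.

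The promoter of Dusp1 is shown because several of the motifs searched lie close together in it. It is the 250 bases upstream of the RefSeq start (GRCm38.p6, chr17:26508473-26508722, reverse strand), 5′ to 3′, and the capitals mark every match to the motifs searched. These include TGACG (the core of the cyclic AMP response element) at 3 places and the E-box CACGTG, which contains ACGTG on both strands. A TGACNNNGC match (the NRF2 motif) on the opposite strand overlaps the E-box. TTTGAA (the cell cycle homology region) also lies on the opposite strand.
Dusp1: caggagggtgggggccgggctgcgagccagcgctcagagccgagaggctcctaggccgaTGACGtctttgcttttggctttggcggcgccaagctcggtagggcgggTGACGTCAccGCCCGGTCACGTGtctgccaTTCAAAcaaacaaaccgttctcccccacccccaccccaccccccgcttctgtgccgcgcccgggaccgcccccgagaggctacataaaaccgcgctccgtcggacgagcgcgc
TGACG stood in 11 of 21 promoters of the immediate early list (52.4%) and in 26.8% of those of all genes tested. Most of that list was not called, and among the genes lower on day 10 the share was 35.8%.

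Genes linked to the GM-CSF receptor were called in both directions. Of 21 genes on the GM-CSF receptor and STAT5 list, 4 fell and 1 rose. Myc, the growth-promoting transcription factor, stood at 83.7, 73.0 and 82.0 CPM on day 9 and at 40.05, 46.5 and 44.7 CPM on day 10. The groups lay far apart relative to their spread, and the log2 fold change was -0.86 ± 0.12 (adjusted p = 0.00219). Socs3 stood at 116, 112 and 120.4 CPM on day 9 and at 48.0, 69.0 and 52.4 CPM on day 10. Socs1, another feedback inhibitor, and Osm, which encodes oncostatin M, fell (log2 fold changes -0.39 and -0.81), and Stat5b rose by 0.26. Dusp6 and Spry1, feedback inhibitors of the ERK pathway, fell as well (-0.63 and -1.12). They belong to a list of 31 ERK and MAP kinase feedback genes chosen after the values were seen, of which 3 fell and 0 rose. The blocked WT fit had 7 genes of the GM-CSF list lower and 3 higher, and 11 of 29 genes of the ERK list lower and 1 higher. Without mouse 63 the GM-CSF list had 4 lower and 4 higher, and without mouse 65 the ERK list had 7 lower.

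Many genes of ribosome assembly, the making of ribosomal subunits in the nucleolus, fell. This list of 108 tested factors was also chosen after the values were seen, so its count describes these libraries and is not independent evidence. Of the 108, 56 fell and 0 rose, 103 had a log2 fold change below 0, and the median was -0.31. Nop56, a core protein of the particles that modify ribosomal RNA, stood at 82.6, 81.7 and 79.4 CPM on day 9 and at 54.6, 56.8 and 57.1 CPM on day 10. The spread within each day was small and the days did not overlap (log2 fold change -0.53 ± 0.08, adjusted p = 0.00219). Ddx21, a nucleolar RNA helicase, stood at 126.0, 127 and 129 CPM on day 9 and at 86.0, 94.3 and 93.7 CPM on day 10. The nucleolar proteins Ncl (nucleolin), Npm1 (nucleophosmin) and Fbl (fibrillarin) fell, with log2 fold changes of -0.36, -0.39 and -0.37, and so did Ppan and Gpatch4 (-0.72 and -0.79). The summed CPM of the list was 5062 to 5187 on day 9 and 3920 to 4393 on day 10. Of the same list 68 fell and 1 rose in the blocked WT fit, in which 45 fell without mouse 63, 39 without mouse 65 and 64 without mouse 66. Without mouse 63 in the fit of all libraries 0 were called, while the median was -0.26.

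Other parts of the protein synthesis machinery had fewer calls. Of 20 aminoacyl-tRNA synthetases, the enzymes that charge tRNA, 3 fell and 0 rose (median -0.18, and -0.11 without mouse 63), namely Lars, Kars and Hars. Hars overlaps its paralog Hars2 on the opposite strand. Of 27 genes of the amino acid response, 4 fell and 0 rose, with a median of -0.26. They were Atf4, the transcription factor of that response, its target Trib3, the amino acid transporter subunit Slc3a2 and Xpot, a tRNA exporter. Atf4 stood at 176, 198 and 172 CPM on day 9 and at 119, 145 and 150.5 CPM on day 10, without overlap (log2 fold change -0.40 ± 0.10, adjusted p = 0.0318). In the blocked WT fit 10 synthetases and 11 genes of the amino acid response fell, and 1 gene of that response rose. In that fit 0 synthetases fell without mouse 63, 0 without mouse 65 and 7 without mouse 66, while 8, 5 and 11 genes of the amino acid response fell. Calls over all genes dropped there too, from 2331 to 1542, 859 and 1968. The synthetase median was -0.12, -0.20 and -0.24, against -0.20 with all 3 mice. In the fit of all libraries the synthetase calls were 0, 0 and 2. Of 35 cytosolic ribosomal protein genes 0 were called, with a median of -0.02 (0.04 without mouse 63, 0.01 without mouse 65, -0.15 without mouse 66), and 1 fell with the block.

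Endoplasmic reticulum chaperones, which fold secreted and membrane proteins, fell modestly where they were called. Of 23 tested, 8 fell and 0 rose, with a median of -0.24. Hspa5, the chaperone BiP, stood at 942, 1036 and 888 CPM on day 9 and at 640.2, 695 and 756 CPM on day 10. The lowest value of day 9 exceeded the highest of day 10, and the log2 fold change was -0.45 ± 0.09 (adjusted p = 0.00858). Calr, the lectin chaperone calreticulin, stood at 1413, 1524 and 1428 CPM on day 9 and at 938, 1059.7 and 1153 CPM on day 10. Pdia4 and Pdia6, disulfide isomerases, fell (log2 fold changes -0.59 and -0.42), as did Hyou1, Creld2 and Dnajb11 (-0.40, -0.39 and -0.23). Manf, a stress-induced secreted protein, fell by 0.44, but shares its locus with Rbm15b on the same strand and Dcaf1 on the other. With the block in the WT libraries 12 fell, and 7 without mouse 65. Without mouse 63, or without mouse 65, 0 were called in the fit of all libraries, with medians of -0.19 and -0.21.

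The promoter of Hspa5 is shown because it holds the element through which this list is known to respond to unfolded proteins. The share of this element in the list therefore describes the choice of the list and not the change on day 10. It is the 250 bases upstream of the RefSeq start (GRCm38.p6, chr2:34771840-34772089, forward strand), 5′ to 3′. The capitals mark the NF-Y box CCAAT on either strand, TGACG with the overlapping ACGTG, and the ER stress response element, a CCAAT box followed after 9 bases by CCACG, which lies 65 to 47 bases before the start.
Hspa5: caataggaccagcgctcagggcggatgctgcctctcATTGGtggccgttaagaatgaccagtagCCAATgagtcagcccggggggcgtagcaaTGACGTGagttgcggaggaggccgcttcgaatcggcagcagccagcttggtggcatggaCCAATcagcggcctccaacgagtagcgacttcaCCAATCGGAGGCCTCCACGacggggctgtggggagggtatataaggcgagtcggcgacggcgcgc
The ER stress response element was found in 9 of 21 promoters of the chaperone list (42.9%) and in 18 of 10521 of all genes tested (0.171%), and in 1.42% of those of genes lower on day 10. CCAAT alone stood in 85.7% and 36.5%.

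Heat shock and antioxidant genes fell in smaller numbers. Of 14 heat shock protein genes only Hspd1, the mitochondrial chaperonin, was called (log2 fold change -0.43), and it overlaps Hspe1 on the opposite strand. Of 24 NRF2 and metallothionein genes 3 fell and 0 rose, with a median of -0.12 (-0.19 without mouse 66). Gclc, the rate-limiting enzyme of glutathione synthesis, stood at 32.7, 34.3 and 35.0 CPM on day 9 and at 22.7, 24.6 and 24.2 CPM on day 10, without overlap (log2 fold change -0.51 ± 0.08, adjusted p = 0.00244). Gsr and Prdx6, which also protect against oxidation, fell (log2 fold changes -0.31 and -0.32). The blocked WT fit called 5 heat shock and 10 NRF2 genes lower and 0 higher, and without mouse 65 it called 1 and 6 lower. Without mouse 63 or mouse 66 it called 3 heat shock genes lower.

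Most called genes of the glycolysis and hypoxia response list were lower on day 10, while 2 were higher. Of 32 glycolysis and hypoxia response genes tested, 6 fell and 2 rose, with a median of -0.20. Eno1 (enolase) stood at 1144, 1069 and 1069 CPM on day 9 and at 785, 758 and 898 CPM on day 10, without overlap (log2 fold change -0.43 ± 0.08, adjusted p = 0.00563). Slc2a1, the glucose transporter GLUT1, stood at 187, 179 and 181 CPM on day 9 and at 120.2, 131 and 126 CPM on day 10. Pkm, Tpi1, Ldha and Pdk1 fell, with log2 fold changes of -0.44, -0.42, -0.31 and -0.40. The 2 that rose were Mxi1, a Myc antagonist (log2 fold change 0.30), and Ddit4, an inhibitor of the growth kinase mTOR (0.60). In oxidative phosphorylation 2 of 30 genes fell, Cycs (cytochrome c) and Cyc1, and the list's median was -0.11. With the block 13 of 31 glycolysis genes fell and 4 rose, and 3 genes of oxidative phosphorylation fell. Without mouse 65 that fit had 5 glycolysis genes lower and 1 higher. For oxidative phosphorylation it had 9 lower without mouse 66 but 1 without mouse 63 or mouse 65, and the median in the fit of all libraries was -0.23 without mouse 66 and -0.07 without mouse 63 or mouse 65. ACGTG, the core of the hypoxia response element, stood in 14 of 30 promoters of the glycolysis list (46.7%) and in 21.5% of those of all genes tested, while 24 of the 32 genes were not called and the share among all genes lower on day 10 was 26.2%.

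Genes that rose included several that restrain growth or promote cell death. Bmf, a BH3-only protein that promotes apoptosis, stood at 17.2, 14.5 and 15.9 CPM on day 9 and at 40.9, 30.4 and 37.9 CPM on day 10. The groups did not overlap, and the log2 fold change was 1.20 ± 0.28 (adjusted p = 0.0242). Pik3ip1, an inhibitor of PI3 kinase, stood at 4.48, 3.54 and 4.32 CPM on day 9 and at 9.97, 7.25 and 10.1 CPM on day 10, also without overlap (log2 fold change 1.15 ± 0.21, adjusted p = 0.00563). Both belong to a list of 28 FoxO target and quiescence genes that was chosen after the values were seen, of which 11 rose and 0 fell, with a median of 0.36. Others on it were Sesn3 (log2 fold change 0.81), an mTOR inhibitor, Ypel3 (0.66), Tsc22d3 (0.54), the glucocorticoid-induced leucine zipper, Ulk1 (0.33), an autophagy kinase, and Rbl2 (0.25), a retinoblastoma relative. Its summed CPM was 1616 to 1785 on day 9 and 2069 to 2264 on day 10. Of 25 p53 target genes 2 rose, Ddit4 and Bbc3, which encodes the apoptosis protein PUMA and is also on the FoxO list. With the block 21 of the 28 FoxO genes rose, and 7 p53 targets rose and 4 fell, against 2 and 3 without mouse 65. In the fit of all libraries 0 were called without mouse 63 and 0 without mouse 65, with medians of 0.31 and 0.37.

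The largest increases among called genes with an average log2 CPM above 1 had mixed functions, and some genes that were not called had larger values. Adra2a, an adrenergic receptor, stood at 13.8, 9.68 and 9.45 CPM on day 9 and at 25.8, 23.99 and 29.4 CPM on day 10, without overlap (log2 fold change 1.27 ± 0.33, adjusted p = 0.0386). Rab11fip4, an effector of recycling endosomes, went from 12.6 ± 0.67 to 29.6 ± 2.4 CPM (mean ± SD, n = 3). Gal, the neuropeptide galanin, rose by 1.36, Slco2b1, an organic anion transporter, by 1.24, Best1, a chloride channel, by 1.21, and Aif1, the myeloid actin-binding protein IBA1, by 1.08 on the log2 scale. Tmem176b rose by 1.15, and its locus overlaps Tmem176a on the opposite strand. Ly6g is described with the neutrophil genes.

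Guanylate-binding proteins, interferon-induced GTPases of host defence, rose in part. Gbp3 stood at 18.1, 18.4 and 22.2 CPM on day 9 and at 38.9, 35.2 and 36.9 CPM on day 10, without overlap (log2 fold change 0.92 ± 0.16, adjusted p = 0.00484). Gbp2 went from 39.5 ± 2.3 to 71.7 ± 15 CPM (mean ± SD, n = 3). These were the only 2 of 40 interferon-stimulated genes called, and the median of that list was 0.05. The blocked WT fit called 6 of the 40 higher and 2 lower, but 4 higher and 7 lower without mouse 63. In the fit of all libraries the median turned to -0.09 without mouse 63 and was 0.18 without mouse 65, so the direction of the list depends on the mice included. On a list of 10 guanylate-binding proteins chosen after the values were seen, 3 rose, and the median was 0.30, but 0.05 without mouse 63 and 0.51 without mouse 66. Besides Gbp2 and Gbp3 this was Gbp2b, at 0.289 to 1.14 CPM on day 9 and 1.72 to 2.599 CPM on day 10. The blocked WT fit called 4 of the 10 higher and 1 lower, and 6 higher and 0 lower without mouse 66. Cyp1b1 and Cyp1a1, known targets of the aryl hydrocarbon receptor and chosen after their values were seen, rose by 1.04 and 1.92 on the log2 scale, as 2 of 8 genes on a list of that receptor, of which 4 rose with the block and 2 without mouse 65 or mouse 66. Cyp1b1 stood at 14.1, 13.6 and 14.1 CPM on day 9 and at 32.1, 27.2 and 27.1 CPM on day 10, while Cyp1a1 stayed at or under 1.18 CPM.

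Lipid synthesis genes were called one at a time. Sc5d rose by 0.39 on the log2 scale, the only one of 24 cholesterol synthesis genes called, and the median of the list was 0.27. Acss2, an acetyl-CoA synthetase, rose by 0.65, the only one of 13 fatty acid genes, although its locus overlaps Gss on the opposite strand, whose count was 143% of its own. Mylip, which marks the LDL receptor for degradation, rose by 0.54, the only one of 13 LXR targets. With the block 13 cholesterol genes, 10 fatty acid genes and 6 LXR targets rose and 0, 0 and 2 fell. Without mouse 65 these were 3, 4 and 3 higher, and 6 cholesterol genes rose without mouse 66. Scd1, a fatty acid desaturase, stood at 28.5, 17.4 and 37.5 CPM on day 9 and at 92.6, 51.5 and 103 CPM on day 10, without overlap, but was not called in the fit of all libraries (log2 fold change 1.57 ± 0.48, adjusted p = 0.0795).

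Genes of mitosis and of dendritic cell maturation had mostly positive log2 fold changes that did not pass the test in the fit of all libraries. All 30 mitosis genes tested had a log2 fold change above 0, with a median of 0.34, and 0 were called. Mki67, the proliferation marker Ki-67, stood at 250, 184 and 238 CPM on day 9 and at 342, 263 and 311 CPM on day 10. The days did not overlap, yet mouse 65 was lowest on both (log2 fold change 0.45 ± 0.31, adjusted p = 0.48, and 0.000311 in edgeR's blocked WT fit). In the 12 WT libraries alone 4 of the 30 rose, and in the blocked WT fit 21 rose, with 0 lower in either. Leaving out mouse 63, 65 or 66 from that blocked fit gave 16, 8 and 12. For DNA replication 0 of 30 genes were called in either fit, with a median of 0.09 that was 0.15 without mouse 63 and -0.0028 without mouse 66. MHC class II presentation had a median of 0.31 (0.20 without mouse 66) with 0 of 18 called, and 8 rose and 1 fell in the 12 WT libraries alone, against 9 and 2 in the blocked WT fit. H2-Ab1, a class II chain, stood at 481, 484 and 535 CPM on day 9 and at 760, 745 and 1107 CPM on day 10, with mouse 66 highest (adjusted p in edgeR's blocked WT fit 3.99e-05). Dendritic cell maturation had a median of 0.19 (0.12 without mouse 63) with 0 of 30 called, and 8 rose in the 12 WT libraries with or without the block. Ccr7, which guides mature dendritic cells to lymph nodes, stood at 33.9, 28.9 and 32.0 CPM on day 9 and at 55.03, 34.9 and 59.2 CPM on day 10, and its adjusted p was 0.373, and 0.000756 in edgeR's blocked WT fit.

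**Figure D3:**
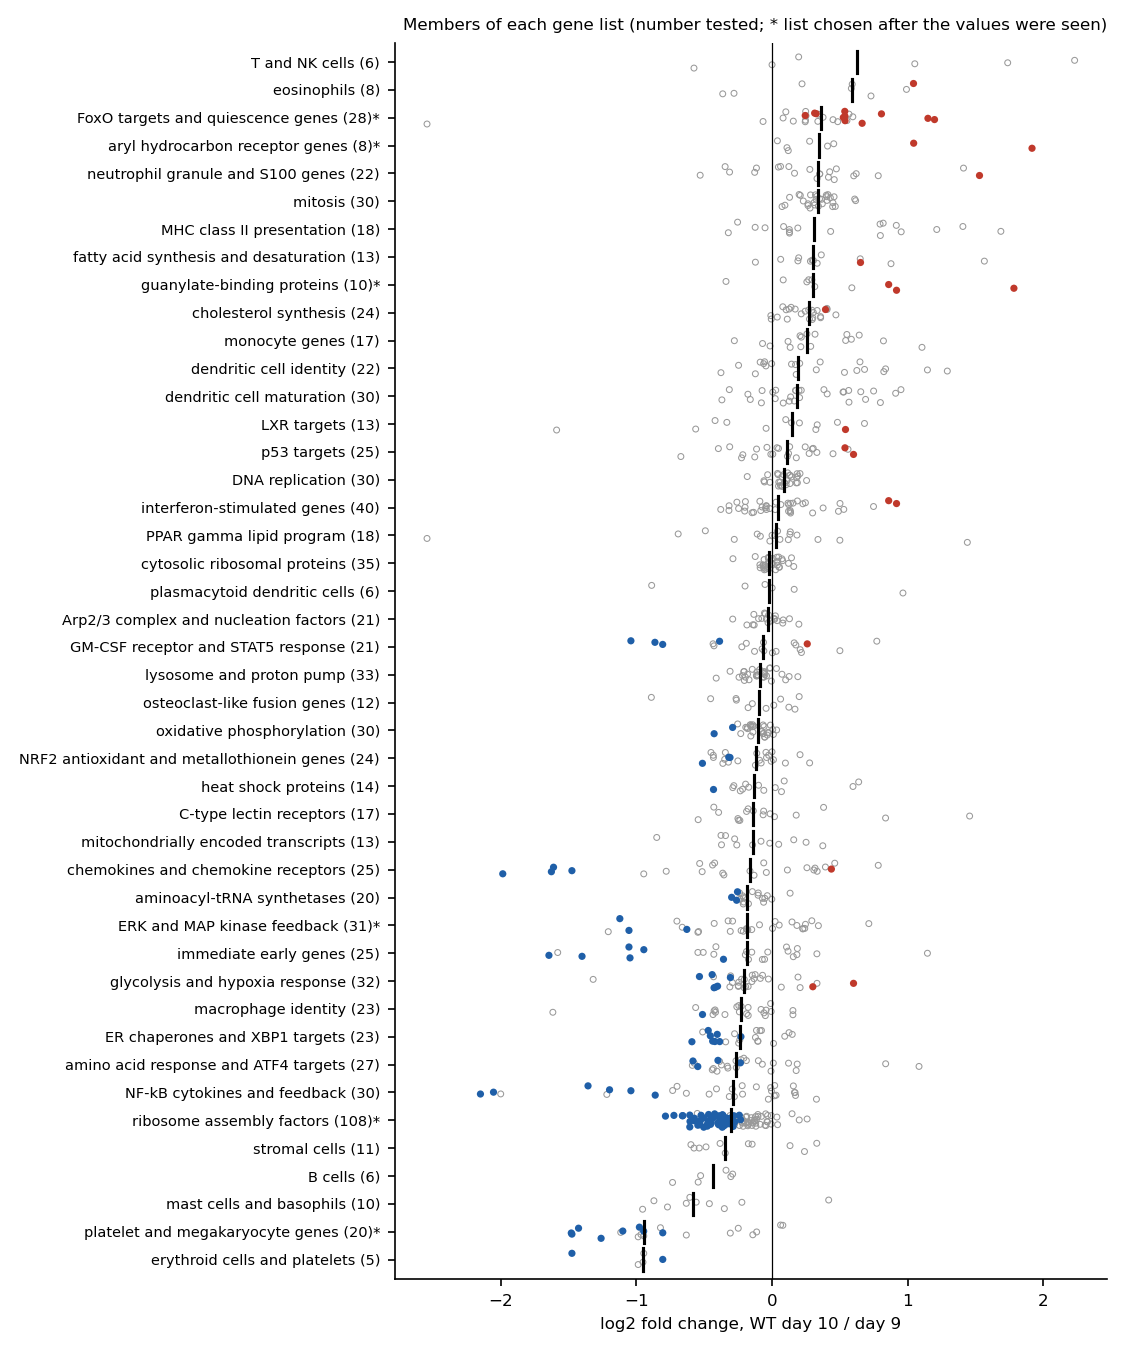
Log2 fold change of WT day 10 over day 9 for each tested member of each gene list with at least 5 members, one line per list, with vertical bars at the medians and filled points for called genes. Ribosome assembly factors (median -0.31, 56 of 108 called) and FoxO and quiescence genes (median 0.36, 11 of 28 called) stand on opposite sides of 0.

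Markers of cell types were read on both days, since cultures of this kind are mixed. CD11c (Itgax) was high on both days, and Zbtb46, a transcription factor of conventional dendritic cells, stood at 5.96 to 6.85 CPM on day 9 and 10.9 to 12.2 CPM on day 10 (adjusted p = 0.353, and 0.000342 with the block). Flt3, the receptor of the dendritic cell growth factor, was low, at 1.25 to 1.41 and 1.72 to 2.68 CPM (adjusted p with the block 0.0493). Of 22 dendritic cell identity genes 0 were called, with a median of 0.19, and in the blocked WT fit 10 rose and 1 fell. The macrophage markers Adgre1 (F4/80) and Csf1r were abundant on both days, at 459 to 538 and 837 to 879 CPM on day 9 and at 460.2 to 506 and 810.4 to 855 CPM on day 10. Of 23 macrophage identity genes only Fcgr1, the high-affinity antibody receptor, was called (log2 fold change -0.51), with a median of -0.23, and 10 fell in the blocked WT fit, but 6 without mouse 63 and 3 without mouse 65.

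Neutrophil and eosinophil genes had 1 call each in the fit of all libraries, both upward. Under the block 7 of 22 neutrophil genes rose and 3 fell (12 and 1 without mouse 63, 4 and 1 without mouse 65), and 5 of 8 eosinophil genes rose. Of 22 neutrophil granule and S100 genes only Ly6g was called. It stood at 4.77, 6.00 and 4.32 CPM on day 9 and at 12.3, 13.2 and 17.9 CPM on day 10 (log2 fold change 1.52 ± 0.32, adjusted p = 0.0132). The summed CPM of this list was 5651 to 5953 on day 9 and 6178 to 8293 on day 10. The granule genes Ngp and Camp went from 732 to 845 and 45.9 to 53.5 CPM to 851 to 1299 and 55.2 to 92.0 CPM, with mouse 66 highest on day 10, and were not called. The neutrophil list's median was 0.34, and 0.13 without mouse 66. Of 8 eosinophil genes Prg2, the granule major basic protein, was called (log2 fold change 1.04), and the summed CPM was 159 to 179 on day 9 and 261 to 325 on day 10. The defining marker Epx, eosinophil peroxidase, stood at 25.7 to 27.9 and 37.6 to 64.6 CPM (adjusted p = 0.0893, and 2.14e-05 with the block).

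Mast cell, basophil and platelet genes had mostly negative log2 fold changes. Of 10 mast cell and basophil genes 0 were called, 9 were below 0 with a median of -0.58, and the summed CPM was 124 to 152 on day 9 and 71.5 to 107 on day 10. Under the block 7 of 9 fell, and 3 without mouse 65. The basophil protease Mcpt8 stood at 22.8 to 28.3 and 9.18 to 17.3 CPM (adjusted p with the block 0.000286). On a list of 20 platelet and megakaryocyte genes chosen after the values were seen, 8 fell and 0 rose, with a median of -0.95. Ppbp stood at 28.6, 42.95 and 33.7 CPM on day 9 and at 13.6, 10.9 and 13.3 CPM on day 10, without overlap (log2 fold change -1.48 ± 0.40, adjusted p = 0.0469). Itga2b, the platelet integrin CD41, fell (log2 fold change -0.81), as did Cavin2, Gp6, Alox12 and Gp5 (-1.43, -1.48, -1.26 and -0.95). Pf4, platelet factor 4, stood at 190.1 to 227 and 95.0 to 116 CPM (adjusted p = 0.312, and 4.72e-07 with the block). Under the block 13 of the 20 fell, and 7 without mouse 65. Without mouse 63, or without mouse 65, 0 were called in the fit of all libraries, with medians of -0.92 and -0.79. Alas2 of erythroid cells had 0 counts in all 6 libraries, while Cd3e, Ncr1 and Siglech of T, NK and plasmacytoid dendritic cells had at most 4, 1 and 2 counts in any of them. Cd79a of B cells stayed at or under 0.931 CPM. The part of other cell types in the changes above was not tested.

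The same day in KO cultures gave fewer calls with the same directions. There 14 genes were called between day 9 and day 10 (0.0963%), and 13 of them were called in WT in the same direction. Of the 171 genes higher in WT 170 were higher in KO, and of the 352 lower 351 were lower. The share with the same sign over all genes tested was not counted, so these counts cannot be called particular to the called genes. Cxcl2 changed by -1.83 in KO, Ccl2 by -0.80, Myc by -0.52, Hspa5 by -0.33, Pik3ip1 by 1.05 and Bmf by 0.78, on the log2 scale. Of these only Cxcl2 passed in KO (adjusted p = 0.015). The difference between the genotypes in this change was tested directly, and 0 of 14535 genes passed (0%) in edgeR. In that test 177 genes had an unadjusted p under 0.05, against 727 that would be reached with no difference at all. That is fewer than the nominal rate, so the test was conservative here and could miss differences. In the DESeq2 Wald test 0 passed as well. A miss of the threshold does not show that the genotypes changed alike. Across all 14535 genes the changes in the 2 genotypes had a Pearson r of 0.57 and a Spearman rho of 0.62, and across the 11111 with an average log2 CPM above 1 these were 0.83 and 0.77. These are across genes, which are not independent replicates, and the genotypes share no library.

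**Figure D4:**
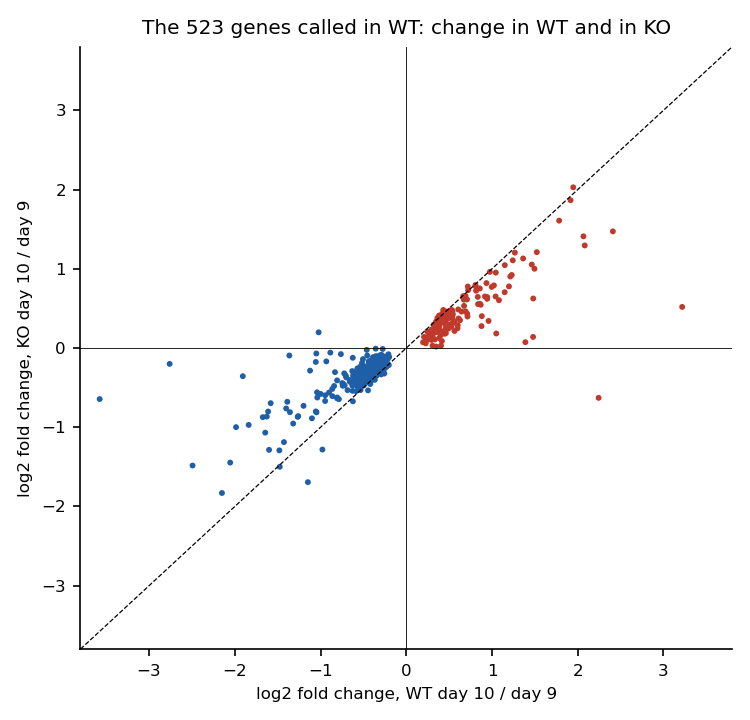
Log2 fold change from day 9 to day 10 in KO (vertical axis) against that in WT (horizontal axis) for the 523 genes called in WT, with the dashed line marking equal change. Of these, 521 lie on the same side of 0 in both genotypes, and the genes were chosen by their WT change. The share over all genes tested was not counted.

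Most genes called on the last day had been called in the other direction on the first, though not all gene groups turned. From day 7, when the cells were replated, to day 8, 6315 genes were called in WT (43.4%), 3120 upward and 3195 downward, and from day 8 to day 9 785 were called (5.4%). Of the 352 genes lower on day 10 than on day 9, 288 had been called higher on day 8 than on day 7 (81.8%, against 21.5% of all genes tested), and 10 lower. They are 9.23% of the genes called higher on day 8. Of the 171 genes higher on day 10, 125 had been called lower on day 8 (73.1%, against 22% of all genes tested), and 11 higher. These are 3.91% of the genes called lower on day 8. The 2 comparisons share mice but no library. Ribosome assembly factors had a median log2 fold change of 0.54 from day 7 to day 8, ER chaperones of 0.47 and NF-kB cytokines of 0.55, and FoxO and quiescence genes had -0.60, each with the other sign on the last day. Other lists had medians of 1 sign on both days. From day 7 to day 8 these were 0.92 for mitosis, 0.54 for cholesterol synthesis, 0.93 for guanylate-binding proteins, 0.91 for aryl hydrocarbon receptor genes, -0.34 for the amino acid response and -0.29 for platelet genes. Dusp1 and Atf4 were called lower on both days, with log2 fold changes of -1.04 and -0.37 on the first.

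A test of the difference between the 2 changes called 5386 genes (37.1%), 2739 with the higher change on the last day and 2647 with the lower. Ccl7, at 166 ± 22 CPM on day 9 and 41.9 ± 9.0 CPM on day 10 (mean ± SD, n = 3), had changed by 4.37 from day 7 to day 8 and by -1.99 on the last day. Best1 had changed by -3.98 and then by 1.21, and Slco2b1 by -3.19 and then by 1.24. Car4 and Cyp4a12a had changed by 7.49 and 7.43 from day 7 to day 8 and, on the last day, by -0.28 and -0.30, which did not pass in the fit of all libraries. In the blocked WT fit Car4 did (adjusted p = 0.00749). Klk1b9 had changed by -2.97 and, on the last day, by 1.49 (adjusted p = 0.157, and 0.000315 with the block). Cyp4a12a and Klk1b9 belong to families of near-identical genes whose reads can be split between copies.

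**Figure D5:**
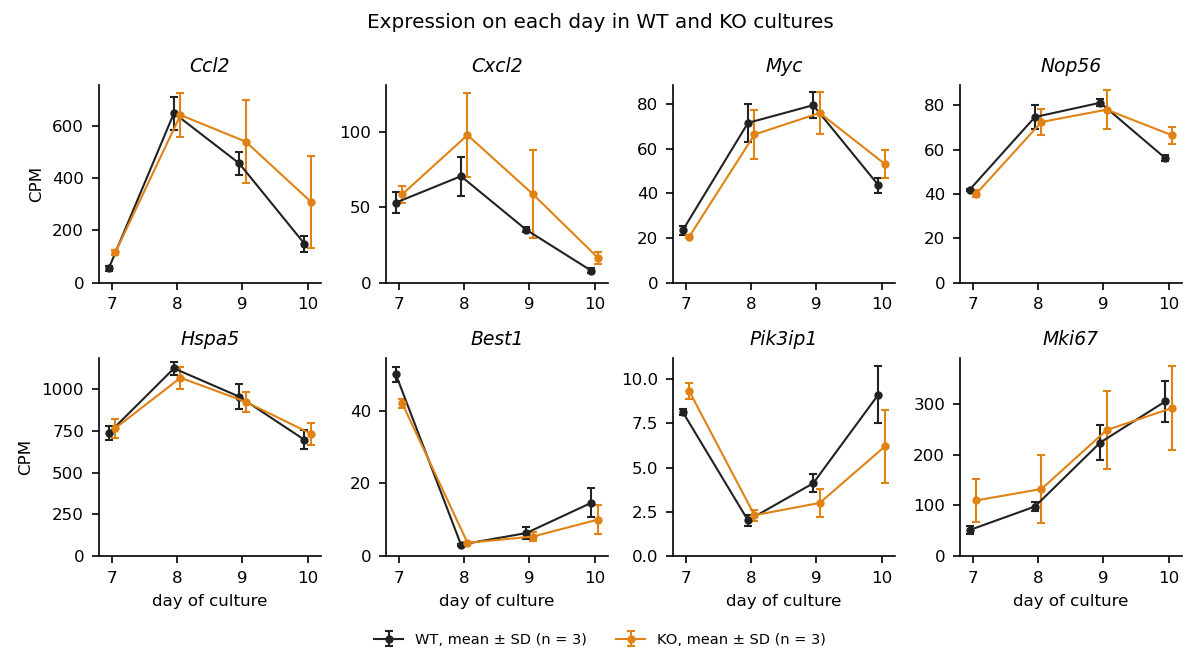
CPM of 8 genes on each day of culture in WT and KO, as mean ± SD of 3 mice. Ccl2, Myc, Nop56 and Hspa5 are higher on day 8 than on day 7 and lower on day 10 than on day 9, Best1 and Pik3ip1 do the reverse, and the mean of Mki67 is higher on each later day.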

How the data were processed

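Poly(A) RNA from suspension cells was sequenced with strand-specific kits of 2 kinds, per the labels' protocols, which do not say which library used which. The authors deposited counts per gene, TPM per gene and a table of gene symbols. FastQC 0.11.9, STAR 2.6.1, DESeq2 1.22.2 and mm10 are named, without roles, per the submitters' processing notes; counting and its strand setting were not given in the sources used here. Of 55487 identifiers, 55094 matched GENCODE M21 on GRCm38 with the same version. Genes were kept by filterByExpr, scaled by TMM and tested with edgeR 4.0.16 (R 4.3.3) on all 24 libraries in 8 groups, which left 16 residual degrees of freedom, with Benjamini-Hochberg adjustment over 14535 genes. Standard errors were derived from each log2 fold change and F value. Tests are two-sided. The rule for named genes took the 10 largest called changes per direction with an average log2 CPM above 1, no overlap of CPM and a proper symbol, up to 4 called members per list by p, 4 label checks, and the 3 largest per direction of each difference. Other named genes were chosen after their values were seen.

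The members and all 44 lists were chosen with earlier results of these data known, 6 of the lists after their own values were seen. Mouse numbers pair the WT libraries only as read from their titles. No source used here states a pairing, so the main fit has none. Deviations of same-numbered libraries of days 9 and 10 correlated at 0.166, 0.464 and 0.00304 for mice 63, 65 and 66, and the highest correlation with another number was 0.101, -0.113 and 0.145, so for mouse 66 the deviations do not show the pairing. Replicate libraries differed beyond sampling noise (chi-square per degree of freedom 8.4 to 25.4). Depth is given as total counts, and PCR reads without molecular identifiers are not independent molecules. Alternatives used DESeq2 1.42.0, limma 3.58.1 on log2 TPM with a pseudocount of 1 or 0.1 from the deposited TPM, other filters, subsets of libraries, mouse blocks and left-out mice. The fit was checked on simulated data. Promoters are 250 bases upstream in RefSeq (GRCm38.p6), searched on both strands for 11 motifs, and 10521 tested genes matched by symbol. The promoters shown were picked in part for their matches, so they are examples and not a test. A few items are not reported here.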

Additional observations from a re-analysis of the deposited data

Results flagged for a closer look

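The change of WT cells from day 9 to day 10 differed from that of day 7 to day 8 in 5386 genes by a test of the difference itself (edgeR, Benjamini-Hochberg). Among called genes with an average log2 CPM above 1 the largest positive log2 differences were those of Best1 (5.20), Klk1b9 (4.47) and Slco2b1 (4.43). The largest negative ones were those of Car4 (-7.77), Cyp4a12a (-7.72) and Ccl7 (-6.35). For Car4, Cyp4a12a and Klk1b9 the change on the last day alone did not pass in the fit of all libraries. With mouse as a block in the 12 WT libraries that of Klk1b9 (1.475, adjusted p = 0.000315) and Car4 (-0.28, adjusted p = 0.00749) passed in edgeR.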

How the results depend on the processing

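For WT day 10 against day 9, 523 genes were called, and the DESeq2 Wald test called 822, the 12 WT libraries alone 1466, the 6 libraries alone 828 and a fold change of at least 1 on the log2 scale 62. With mouse as a replicate block the count was 424 in all 24 libraries, a fit that also blocks on the KO numbers that did not follow 1 mouse, 2331 in the 12 WT libraries and 1331 in the 6 libraries. Leaving out 1 mouse or 1 library gave 0 to 533, lowest without mouse 63, and 1542, 859 and 1968 without mouse 63, 65 or 66 in the blocked WT fit, an alternative chosen after seeing the data. Higher genes were 32.7% of calls, 50.3% in the 12 WT libraries, 51.8% in these with the block, 57.0% in the 6 libraries, 58.4% in the 6 libraries with the block and 46.8% without a filter. Over TPM with a pseudocount of 1 or 0.1, 380 and 360 were called, of which 24.7% and 21.1% were higher. The cause of these shifts was not tested. Of 99 called genes followed through up to 25 alternatives (23 for Cyp1a1 and 24 for Fosl1, Gbp2b and Gp6), 0 reversed, and 53 kept their call in all 12 that used all 3 mice and no fold minimum.

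The difference between genotypes gave 0 genes in every alternative run, with 87 to 804 at an unadjusted p under 0.05, including fits that leave out or block on KO numbers. The difference from the change of day 7 to day 8 gave 5386 genes, 2013 with the fold minimum, and 3378 to 3930 with a mouse left out. With TPM 29.4% of these were higher, against 50.9% in the counts. Thinning every library to the lowest total gave 477 genes for WT day 10 against day 9 and 5186 for this difference.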

Other observations

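Several gene groups had no member past the threshold between day 9 and day 10 in the fit of all libraries. The 33 genes of lysosomes and the proton pump had a median log2 fold change of -0.09 (-0.05 without mouse 63, -0.16 without mouse 66), and 28 of them lay below 0; 5 fell with mouse as a block in the 12 WT libraries, but 1 without mouse 63 or mouse 65. The 18 genes of the PPAR gamma lipid program, which alveolar macrophages use, had a median of 0.03 (0.10 without mouse 63), and with that block 3 rose and 3 fell, against 4 and 2, 2 and 1, and 1 and 3 without mouse 63, 65 or 66. The 12 genes of osteoclast-like fusion stood at -0.09, with 1 higher and 4 lower under the block (0 and 0 without mouse 65), and the 17 C-type lectin receptors at -0.14 (-0.09 without mouse 65), with 2 higher and 5 lower (3 lower without mouse 65). The 21 genes of the Arp2/3 complex and its activators, the machinery targeted in the KO mice, had a median of -0.03 (0.02 without mouse 63, -0.10 without mouse 66), with 2 lower under the block. Mitochondrially encoded transcripts (13 genes) stood at -0.14, but at -0.51 without mouse 63, 0.05 without mouse 65 and 0.04 without mouse 66, so that the sign depends on the mice included. Monocyte genes (17) had a median of 0.26 (0.14 without mouse 63), and 6 of them rose under the block. Stromal genes (11) had a median of -0.34 and genes of B cells (6) of -0.43 (-0.22 without mouse 65). The summed CPM of the stromal genes did not follow their median, at 204 to 276 on day 9 and 263 to 308 on day 10. Genes of T and NK cells (6) had a median of 0.62 (0.40 without mouse 63, 0.95 without mouse 66). For genes of plasmacytoid dendritic cells (6) it was -0.03 (-0.05 without mouse 63, -0.08 without mouse 65, 0.02 without mouse 66). Under the block these 4 lists had 1 higher and 1 lower, 0 higher and 1 lower, 1 higher of 3 tested, and 1 higher. The median of the 3 T and NK genes tested under the block was 0.18. The summed CPM of the T and NK genes was 3.77 to 4.82 on day 9 and 5.20 to 5.92 on day 10.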
